A study of Mus musculus with 69 samples.

Results

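Proteins that pass the glomerular filter are taken back by the proximal tubule, and 6 genes that build this pathway were followed here: Lrp2, Cubn, Amn, Dab2, Clcn5 and Fcgrt. They were chosen by name, with no measured value in the rule, from the 24523 gene symbols counted in each library, and all 6 passed the minimum count in every test. Megalin (Lrp2) and cubilin (Cubn) are the large receptors of the brush border that bind albumin, vitamin carriers and hormones in the tubular fluid. Amnionless (Amn) carries cubilin to the cell surface, and the adaptor Dab2 links the tail of megalin to clathrin-coated pits. The chloride/proton exchanger ClC-5 (Clcn5) works in the acidification of the endosomes that follow, and loss of its human counterpart causes Dent disease, with low-molecular-weight proteinuria. The neonatal Fc receptor (Fcgrt, FcRn) binds albumin and IgG at acid pH and returns them from endosomes, and it needs B2m as its light chain.

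RNA-seq of perfused whole kidneys from female NZB/W F1 mice, a cross that develops spontaneous lupus nephritis, was compared in 3 groups. The young group held 30 mice of 12 weeks and the nephritic group 27 mice of 30 to 45 weeks, harvested 2 to 3 weeks after proteinuria reached 300 mg/dl with blood urea nitrogen under 25 mg/dl, and both were collected at 6 Zeitgeber times (ZT) 4 h apart. The remission group held 8 mice of 36 to 50 weeks, 4 at ZT0 and 4 at ZT12. They were treated after proteinuria rose above 300 mg/dl, and only mice that kept it at or below 30 mg/dl were used. They had been given cyclophosphamide at 50 mg/kg and 6 doses each of 200 µg CTLA4Ig and 250 µg anti-CD40L over 2 weeks, and were harvested 8 weeks later. No transgene was used, all mice share the lupus-prone genotype, and young and nephritic mice differ in age as well as disease, so these cannot be told apart.

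Libraries held 25257500 to 35744800 counts in young, 26596500 to 48076000 in nephritic and 13311300 to 21849900 in remission mice, and no library of the 69 held the same counts as another. Young and nephritic mice came in Set 1 (6 young, 5 nephritic, ZT0 and ZT12 only) and Set 2 (24 young, 22 nephritic), and the remission mice were sequenced in a later run together with repeats of 4 mice of Set 2. In 3 of the 4 repeats the nearest original was the same mouse. The library labelled as the repeat of a nephritic ZT12 mouse (RX11RU) ranked its own original only 15th (r = 0.969). Its nearest original was the nephritic ZT4 mouse RX11LU (r = 0.994), so the label may be wrong. The remission ZT12 mouse s9 held 27.1 CPM (counts per 1000000 counts of the library, after scaling) of the clock gene Arntl against 3.19 to 4.90 in the other 3, and the nephritic ZT8 mouse RX10RU held 18.01 against 2.10 to 3.71. Libraries also differed in how long transcripts were represented against short ones. A length index, the mean log2 deviation from the average library of genes with at least 5080.5 exonic bases minus that of genes with at most 2116, ranged from 0.19 to 0.43 in Set 1 young, from -0.32 to 0.13 in Set 1 nephritic, from -0.28 to 0.57 in Set 2 young, from -0.25 to 0.50 in Set 2 nephritic and from -0.27 to 0.15 in remission mice. The 6 genes span this property, since Lrp2 has 16.6 kb of exonic sequence and Amn 1.70 kb.

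In young kidney all 6 genes were expressed, with Lrp2 among them at the highest level per length. Lrp2 (chr2:69424340-69586065, minus strand of GRCm38, 80 merged exons) had a median of 171 CPM per kb of exonic sequence in young mice. Fcgrt (chr7:45092990-45103851, minus strand) had 146 CPM per kb and Amn (chr12:111271095-111276426, plus strand) had 138 CPM per kb. Dab2 (chr15:6299788-6440712, plus strand) stood at 94.9 CPM per kb, Cubn (chr2:13276338-13491813, minus strand) at 53.7 CPM per kb and Clcn5 (chrX:7153810-7319358, minus strand) at 6.02 CPM per kb. The order Dab2 above Cubn above Clcn5 held in all 30 young mice, while Fcgrt exceeded its neighbour Amn in only 20 of 30. Whether the levels of that pair differed was not tested. In nephritic mice Fcgrt led at 137 CPM per kb, Amn followed at 123 CPM per kb, and Lrp2 stood in the third place at 102 CPM per kb, with Amn above Lrp2 in 19 of 27 mice. In remission mice Fcgrt and Lrp2 had medians of 151 and 150.3 CPM per kb and exchanged places in 4 of 8 mice. An antisense gene, Gm13270, overlaps 3.27% of the exonic length of Cubn, and its reads cannot be separated from those of Cubn where strand was not used.

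The start-site regions of the 4 genes on which the results turn are shown from RefSeq on GRCm38.p6, from 250 bases before to 50 bases after the start. Amn and Fcgrt were the genes called over the day in young mice in the main fit, 2 of 6 against 39.8% of all genes tested. Other fits, given below, also called other members. Lrp2 and Cubn were the genes with the largest falls in nephritis among the 6. Capitals mark the E-box CACGTG, the element bound by Clock and Bmal1, the only one of 5 searched motifs found in these 4 windows.
Amn (chr12:111270846-111271145, plus strand): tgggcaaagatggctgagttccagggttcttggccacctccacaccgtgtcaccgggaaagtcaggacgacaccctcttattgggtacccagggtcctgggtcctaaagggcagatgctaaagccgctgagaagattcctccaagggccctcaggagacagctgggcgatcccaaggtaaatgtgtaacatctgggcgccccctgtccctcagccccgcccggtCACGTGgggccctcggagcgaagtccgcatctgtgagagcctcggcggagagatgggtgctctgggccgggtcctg
Fcgrt (chr7:45103773-45104072, minus strand): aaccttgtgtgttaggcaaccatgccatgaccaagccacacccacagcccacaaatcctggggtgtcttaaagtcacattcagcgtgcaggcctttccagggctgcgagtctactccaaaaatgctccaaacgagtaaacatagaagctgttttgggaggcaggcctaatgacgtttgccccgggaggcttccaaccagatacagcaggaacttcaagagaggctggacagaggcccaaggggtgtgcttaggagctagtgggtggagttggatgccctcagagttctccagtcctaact
Lrp2 (chr2:69585980-69586279, minus strand): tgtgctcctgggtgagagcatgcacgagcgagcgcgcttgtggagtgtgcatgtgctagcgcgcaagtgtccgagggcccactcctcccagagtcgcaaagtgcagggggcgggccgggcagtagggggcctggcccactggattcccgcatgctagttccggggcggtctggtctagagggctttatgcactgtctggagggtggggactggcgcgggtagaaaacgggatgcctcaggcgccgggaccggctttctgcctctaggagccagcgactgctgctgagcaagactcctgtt
Cubn (chr2:13491827-13492126, minus strand): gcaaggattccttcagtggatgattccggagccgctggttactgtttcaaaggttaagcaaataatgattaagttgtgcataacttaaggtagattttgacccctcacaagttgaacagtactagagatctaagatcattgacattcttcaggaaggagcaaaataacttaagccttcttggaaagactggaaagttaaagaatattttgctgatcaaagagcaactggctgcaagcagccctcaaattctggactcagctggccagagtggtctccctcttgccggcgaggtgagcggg
Both strands were searched for the E-box CACGTG (held by 7.15% of 32851 promoters), the D-box TTATGNAA (3.38%), the ROR element AGGTCA (16.3%), the HNF1 core GTTAAT (7.1%) and the HNF4 element CAAAGTCCA (0.475%). The match in Amn began at position -26. One of the promoters of Dab2 held GTTAAT at position -65, and neither window of Clcn5 held any of these motifs. The window of Lrp2 was 65% G and C and that of Cubn 44.3%.

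The first comparison asked whether the pathway differs between nephritic and young kidneys. Messenger RNA of the receptors Lrp2 and Cubn stood at 0.520 and 0.549 of the young level in nephritic kidney. Clcn5 stood at 0.702, Dab2 at 0.789 and Amn at 0.830 of it, and no change of Fcgrt was called. In all, 5 of the 6 genes were lower at an adjusted p of at most 0.05 by the quasi-likelihood test of edgeR with Benjamini-Hochberg adjustment over 17521 genes, where 33.9% of all genes tested were lower. The median log2 change was -0.43 over the 6 genes and -0.03 over all genes. In whole kidney, fewer cells of a type and less RNA per cell cannot be told apart.

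Lrp2 ranged from 1972 to 4725 CPM in young mice (median 2839) and from 371 to 2929 CPM in nephritic mice (median 1686). Of 27 nephritic mice, 17 lay below the lowest young mouse and 25 below the young median, and the groups overlapped in the remaining mice. The log2 change was -0.94 (SE 0.15, adjusted p = 6.5e-07, edgeR), a fold of 0.520.

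Cubn ranged from 437 to 853 CPM in young mice (median 604) and from 91.2 to 574 CPM in nephritic mice (median 382). All 27 nephritic mice were below the young median and 18 were below the lowest young mouse. The log2 change was -0.86 (SE 0.12, adjusted p = 2.3e-08, edgeR), a fold of 0.549.

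Dab2 had 349 to 626 CPM in young (median 495) and 201 to 539 CPM in nephritic mice (median 397), with 8 of 27 nephritic mice below the lowest young mouse. Its log2 change was -0.34 (SE 0.06, adjusted p = 1.5e-06, edgeR). Amn, the partner of cubilin, had 136 to 375 CPM in young (median 235) and 102 to 279 CPM in nephritic mice (median 210.0), and only 3 nephritic mice lay below the young range. The log2 change of Amn was -0.27 (SE 0.07, adjusted p = 0.0006, edgeR).

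Clcn5 had 17.1 to 84.9 CPM in young (median 50.5) and 13.1 to 63.8 CPM in nephritic mice (median 35.4). A single young ZT16 mouse held the low value, so that only 1 nephritic mouse lay below the young range although 26 of 27 were below the young median. The log2 change was -0.51 (SE 0.11, adjusted p = 5.1e-05, edgeR). Fcgrt had 164 to 367 CPM in young (median 260.3) and 152 to 366 CPM in nephritic mice (median 244), and the groups overlapped over nearly their whole ranges. Its log2 change was -0.11 (SE 0.06, 95% interval -0.23 to 0.01, adjusted p = 0.119, edgeR). Without the nephritic ZT20 mouse RX90 the change was -0.14 with an adjusted p of 0.027. The light chain of the receptor moved the other way, since B2m, shared with MHC class I, was higher in nephritic mice (log2 change 0.91, SE 0.08, adjusted p = 8.1e-15, edgeR).

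**Figure D1:**
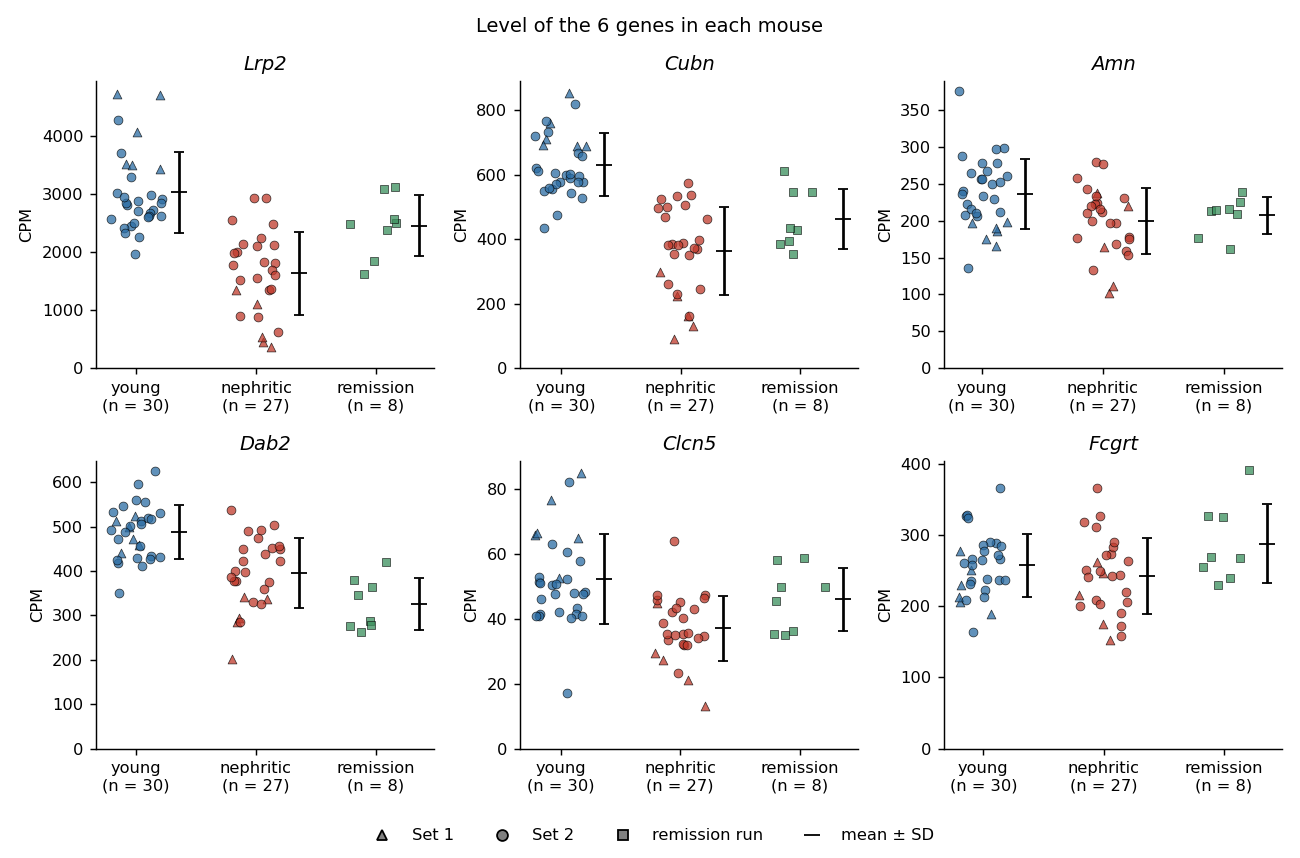
Level of each of the 6 genes in CPM (vertical axes from 0) in every original library, by group. Triangles are Set 1, circles Set 2 and squares the remission run, and the bar gives mean ± SD. For Lrp2 and Cubn, 17 and 18 of the 27 nephritic mice lie below every young mouse, and for Fcgrt 2 of 27 do.

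The fall differed between the sequencing sets. At ZT0 and ZT12, where both sets have mice, Lrp2 was 3436 to 4725 CPM in the 6 young and 371 to 1353 CPM in the 5 nephritic mice of Set 1, which do not overlap, and 2257 to 3709 CPM in the 8 young and 618 to 2929 CPM in the 8 nephritic mice of Set 2, which overlap. The log2 change of Lrp2 was -2.52 (SE 0.29) in Set 1 and -0.43 (SE 0.27, adjusted p = 0.22, edgeR) in Set 2 at these times. Cubn changed by -2.13 (SE 0.22) and -0.55 (SE 0.22, adjusted p = 0.058, edgeR), and Clcn5 by -1.44 (SE 0.22) and -0.20 (SE 0.15, adjusted p = 0.297, edgeR). For Dab2 the values were -0.75 (SE 0.12) and -0.29 (SE 0.12, adjusted p = 0.056, edgeR). The difference between sets was called for these 4 genes, which was 4 of 6 against 35.1% of 16684 genes, with adjusted p of 0.0015 for Lrp2, 0.0027 for Cubn, 0.0019 for Clcn5 and 0.043 for Dab2 by edgeR. It was not called for Amn (adjusted p = 0.391, edgeR) or Fcgrt (adjusted p = 0.418, edgeR). Within Set 2 at these times Amn changed by -0.42 (adjusted p = 0.013, edgeR) and Fcgrt by -0.27 (adjusted p = 0.035, edgeR). Within Set 1 neither was called, with -0.17 for Amn (adjusted p = 0.48, edgeR) and -0.09 for Fcgrt (adjusted p = 0.66, edgeR). The length index moved with this contrast, with medians of 0.30 in Set 1 young and -0.20 in Set 1 nephritic mice, against -0.09 and 0.03 in Set 2. With the index as a covariate, none of the 6 genes and 9 of 16684 genes had a called difference between sets (edgeR), while the estimate for Lrp2 stayed at 1.98 (SE 0.75) and that for Clcn5 dropped from 1.19 to 0.28.

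In Set 2 alone over all 6 times, with 24 young and 22 nephritic mice, the same 5 genes were lower, against 4844 of 17339 genes. There Lrp2 changed by -0.61 (SE 0.12, adjusted p = 2.5e-05, edgeR), Cubn by -0.58 (SE 0.09) and Clcn5 by -0.29 (SE 0.09). Amn changed by -0.26 (SE 0.07), Dab2 by -0.22 (SE 0.06) and Fcgrt by -0.08 (SE 0.06, adjusted p = 0.297, edgeR). With the length index as a covariate in all 57 mice, Lrp2 changed by -0.93 and Amn by -0.28, and Fcgrt passed the threshold at -0.12 (adjusted p = 0.043, edgeR). In Set 2 alone with that covariate, Fcgrt stood at 0.01.

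**Figure D2:**
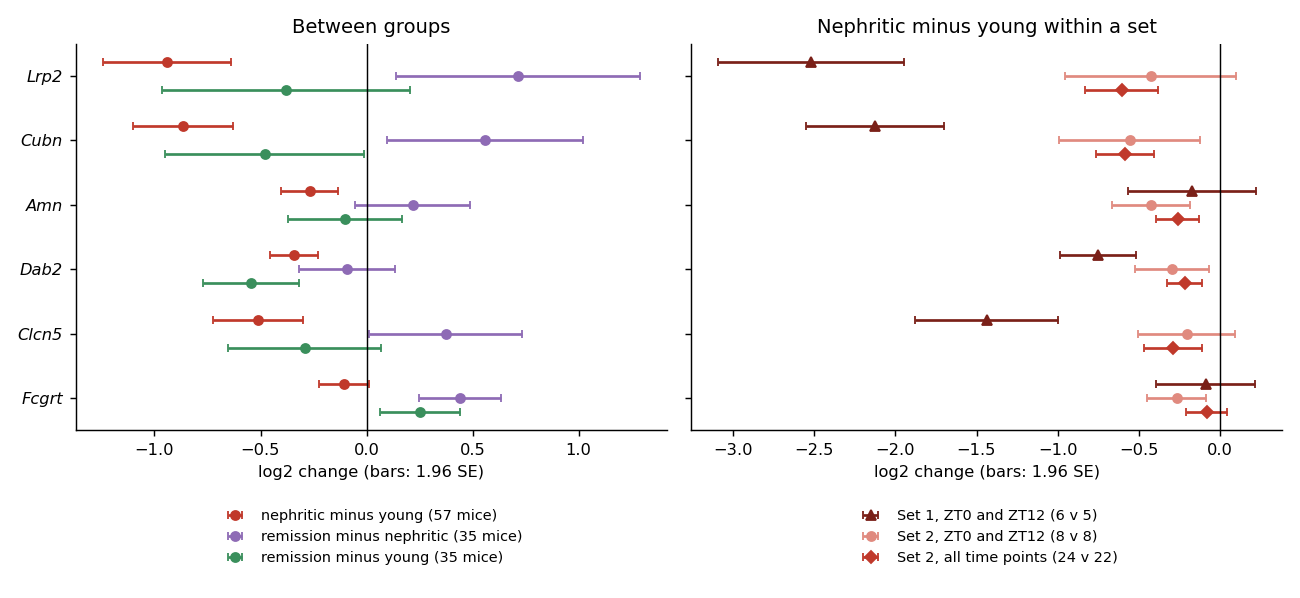
Log2 change of each gene with bars for the 95% interval. Left, the 3 group comparisons. Right, nephritic minus young within Set 1 and within Set 2; for Lrp2 the change is -2.52 in Set 1 and -0.61 in Set 2 over all times.

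Markers of the cells that carry the pathway fell as well. All 18 proximal tubule markers were lower in nephritic mice, with a median log2 change of -0.72, and their summed level was 19147 to 31235 CPM in young and 4193 to 23749 CPM in nephritic mice. No marker was at 0, although Slc7a13, a transporter of the last tubule segment, stayed under 9 CPM in every mouse. Slc7a13 and Slc5a12, a lactate transporter, had the largest falls of this list (log2 -0.97 and -0.90), and Slc7a7 and Ggt1 the smallest (-0.42 and -0.46). Markers of leukocytes went the other way. All 10 macrophage markers were higher, with a summed level of 129.98 to 280.3 CPM in young and 329 to 2306 CPM in nephritic mice, and all 10 markers of T, B and plasma cells were higher, with a summed level of 156 to 275 CPM and 192 to 2992 CPM. Macrophages can also express Dab2 and Fcgrt, and the part of these cells in the levels of both genes was not tested. Endothelial cells carry Fcgrt too, and 5 of 8 endothelial markers were lower and 1 higher. Of other lists, 4 of 6 podocyte, 5 of 6 fibroblast and 1 of 8 distal tubule markers were higher, while 4 distal tubule markers and 2 of 4 adrenal markers were lower.

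Each gene was therefore set against the tubule markers within the same library, as its log2 CPM minus the mean log2 CPM of the 18 markers. Lrp2 stood 2.28 ± 0.30 (SD, n = 30) above the marker mean in young and 2.01 ± 0.28 (SD, n = 27) in nephritic mice. The difference within times and sets was -0.27 for Lrp2 (adjusted p = 0.0012, permutation test within strata, 2-sided) and -0.15 for Cubn (adjusted p = 0.0044, permutation test). In Set 2 alone these were -0.10 (adjusted p = 0.151, permutation test) and -0.06 (adjusted p = 0.183, permutation test), and neither passed. The other 4 genes fell less than the markers. The median log2 change was -0.72 for the markers and -0.03 for all genes, so an unchanged gene would also be higher on this scale. How many of all genes are so was not tested. Fcgrt was 0.68 higher in nephritic mice on this relative scale, Amn 0.51 and Dab2 0.44 (each adjusted p = 2e-05 by permutation test, the raw p being 1e-05, the smallest that these permutations can give), and Clcn5 0.26 (adjusted p = 0.016, permutation test). All 4 also passed in Set 2 alone, at 0.48, 0.30, 0.34 and 0.29.

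Genes that work beside the 6 were counted by step of the pathway. Of 18 megalin partners and clathrin coat genes, 9 were lower and 3 higher, with a median log2 change of -0.08, against 33.9% lower and 28.1% higher over all genes. Lrpap1, the chaperone of megalin known as RAP, changed by -0.63 (SE 0.10) and Folr1, the folate receptor, by -0.52 (SE 0.10), while Gipc1, which binds the tail of megalin, rose by 0.25 and Ap2b1, a subunit of the AP-2 adaptor, by 0.16. Of 21 genes for endosome sorting and recycling, 18 were lower and 1 higher, all within a narrow range from -0.32 for Ehd3 to 0.09 for Rab11b. Inpp5b, an inositol phosphatase related to Ocrl, changed by -0.29 and the lipid kinase Pikfyve by -0.11.

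Of 19 tested genes of endosome acidification, 13 were lower and 2 higher, with a median of -0.15. The sodium/proton exchangers Slc9a8 and Slc9a3 had the largest falls (log2 -0.66 and -0.54), and the V-ATPase subunit Atp6v0a1 and the lysosomal exchanger Clcn7 rose by 0.17 and 0.06. The lysosome list did not share this direction, since 8 of 18 genes were higher and 4 lower. Cathepsin D (Ctsd) rose by 0.68 and Hexa by 0.53, while the membrane protein Lamp2 changed by -0.31 and cathepsin H (Ctsh) by -0.29.

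**Figure D3:**
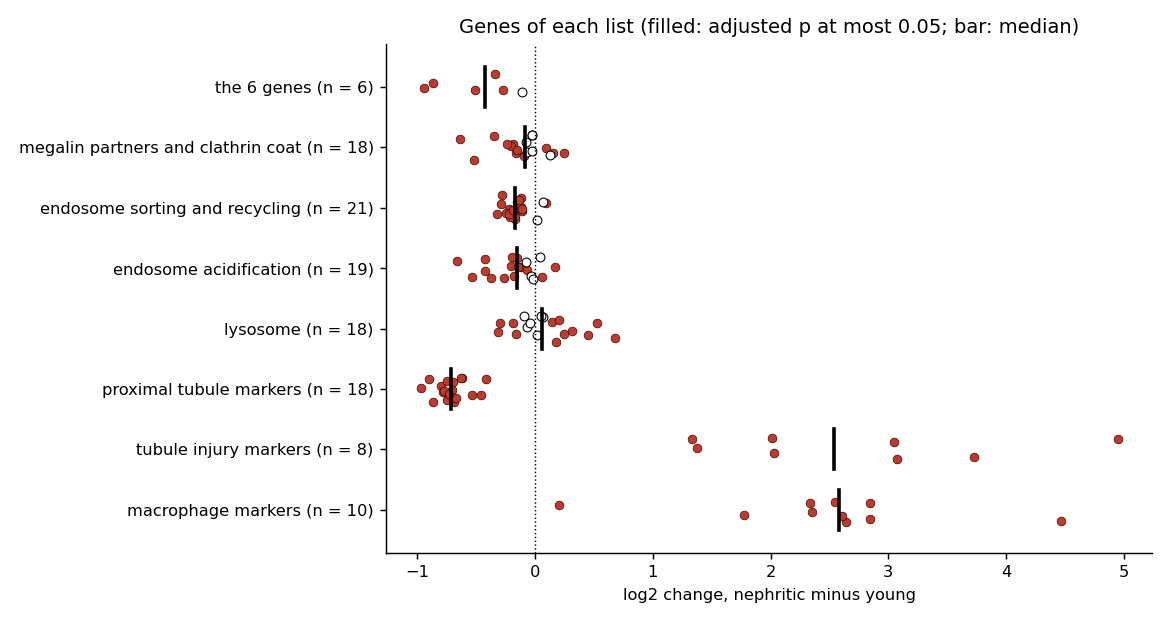
Log2 change from young to nephritic mice (horizontal axis) for each tested gene of 8 lists. Filled points passed an adjusted p of 0.05, open points did not, and bars are medians; the bar stands at -0.43 for the 6 genes, -0.72 for proximal tubule markers and 2.54 for tubule injury markers.

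Nephritic mice differed widely among themselves, and the question was whether this followed tubule injury. All 8 injury markers were higher in nephritic mice, and Havcr1 (KIM-1), which the injured proximal tubule makes, ranged from 23.3 to 125 CPM in young and from 21.3 to 1124 CPM in nephritic mice. Over the 27 nephritic mice, 5 of the 6 genes were lower where Havcr1 was higher, and so were 16 of the 18 proximal tubule markers and 23.6% of 14175 genes, each by limma with adjustment over all genes. The median r was -0.66 over the 6 genes, -0.73 over the markers and 0.04 over all genes. An r as low as that of Lrp2 was held by 8.51% of all genes, and one as low as that of Dab2 by 14.9%. On log2 CPM, Lrp2 had r = -0.71 (adjusted p = 0.00021) and rho = -0.64 (adjusted p = 0.00091), and r = -0.76 without the 2 mice farthest from the Havcr1 median, by permutation tests over 6 relations. Its raw p was 7e-05 for r and 0.00038 for rho, both by permutation.

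Cubn had r = -0.70 (raw p = 4e-05, adjusted p = 0.00021) and rho = -0.64 (raw p = 0.0004, adjusted p = 0.00091) by permutation, and r = -0.71 without those 2 mice. Fcgrt had r = -0.68 (raw p = 0.00018, adjusted p = 0.00027) and rho = -0.64 (raw p = 0.00046, adjusted p = 0.00091), although its group level was not called lower, and r = -0.62 without the 2 mice. Amn had r = -0.65 (raw p = 0.00015, adjusted p = 0.00027) and rho = -0.63 (raw p = 0.00061, adjusted p = 0.00091), and Dab2 r = -0.60 (raw p = 0.00087, adjusted p = 0.0010) and rho = -0.57 (raw p = 0.0020, adjusted p = 0.0024), with r = -0.69 and -0.59 without the 2 mice. Clcn5 did not pass, with r = -0.33 (raw and adjusted p = 0.092) and rho = -0.30 (raw and adjusted p = 0.125), and r = -0.33 without the 2 mice. Within Set 2 (22 mice) r was -0.68 for Lrp2, -0.72 for Cubn, -0.61 for Fcgrt, -0.57 for Amn, -0.58 for Dab2 and -0.30 for Clcn5, and Set 1 holds too few nephritic mice for a value. CPM are shares of a library, so a rise of some genes lowers the share of others in the same mouse.

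**Figure D4:**
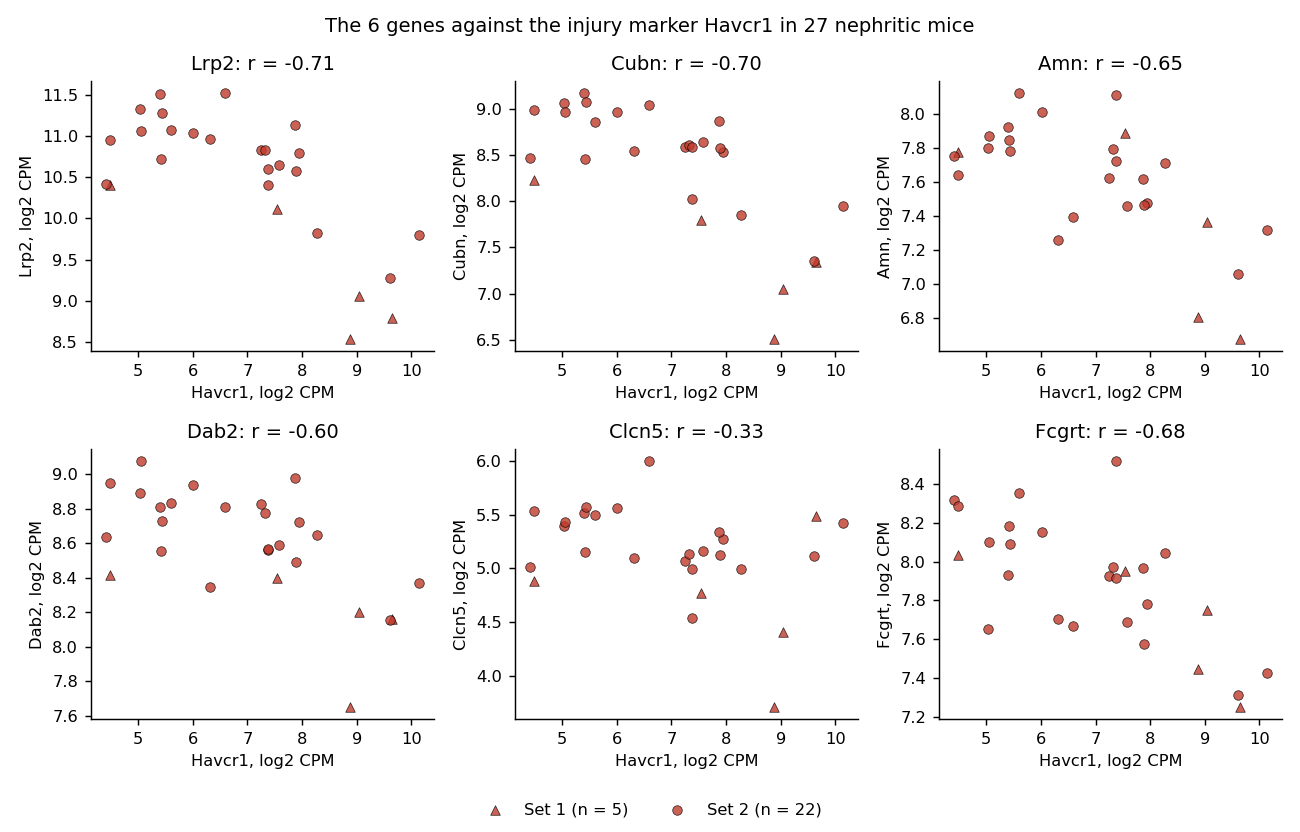
Each gene against Havcr1 in the 27 nephritic mice, both axes in log2 CPM, with Set 1 as triangles and Set 2 as circles. The points fall to the right for Lrp2 (r = -0.71) and 4 other genes, and the relation did not pass for Clcn5 (r = -0.33).

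The 6 genes were also compared with each other, in 15 pairs per group. In nephritic mice all 15 correlations were positive, with a median r of 0.69, as were all 153 between the proximal tubule markers, with a median r of 0.84. Over all pairs of 14176 genes 50.1% were positive, and 4.33% reached 0.69. The highest was between the receptors Lrp2 and Cubn, with r = 0.97 (raw p = 1e-05, adjusted p = 3.8e-05, permutation) and rho = 0.95, r = 0.97 without the 2 mice farthest from the Lrp2 median and r = 0.96 in Set 2. In young mice 9 of 15 were positive, with a median r of 0.26, which 25.4% of all pairs reached, and 102 of the 153 marker pairs were positive, with a median of 0.23. Lrp2 and Cubn had r = 0.84 (raw p = 1e-05, adjusted p = 5e-05, permutation) and rho = 0.80, r = 0.84 without the 2 farthest mice and 0.80 in Set 2. Amn had r = 0.74 with Fcgrt (raw p = 2e-05, adjusted p = 7.5e-05, permutation), with rho = 0.66 and r = 0.57 without the 2 mice farthest from the Amn median. With its partner Cubn it had r = -0.21 (raw p = 0.262, adjusted p = 0.328, permutation) and rho = -0.17. Between Lrp2 and Amn r was -0.55 in young mice (raw p = 0.0013, adjusted p = 0.0032, permutation; rho = -0.49, and r = -0.50 without the 2 mice farthest from the Lrp2 median) and -0.33 in Set 2 alone (raw p = 0.111, permutation), where it did not pass. Over the 30 young mice the length index had r = 0.83 with Lrp2, 0.56 with Cubn, 0.64 with Clcn5, 0.10 with Dab2, -0.79 with Amn and -0.66 with Fcgrt. Over the 27 nephritic mice these were 0.18, 0.17, 0.41, 0.04, -0.51 and -0.60. The part of the index in the correlations between the genes was not tested.

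The genes most like each of the 6 were named from 14175 others by their Pearson r over the 57 young and nephritic mice, after group, time and set means were removed. Lrp2 was closest to Cubn (r = 0.96), Mgat3 (0.95) and Gk (0.94), and Cubn to Lrp2 (0.96), Ahcyl2 (0.95) and Vwa8 (0.95). Amn was closest to Scrn2 (0.90), Fam132a (0.90) and Sigirr (0.90). For Dab2 these were Slc5a12 (0.88), Mfsd1 (0.87) and Pde1a (0.87), for Clcn5 Hook1 (0.94), Alg10b (0.94) and Lmbrd2 (0.94), and for Fcgrt Ifrd2 (0.89), Dhrs3 (0.86) and Park7 (0.86). The length index was not removed, and its part in these relations was not tested.

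The study's main question was daily rhythm, and 2 of the 6 genes, Amn and Fcgrt, varied over the 6 times in young mice, against 39.8% of 16521 genes. Fcgrt in young mice was 286 to 328 CPM at ZT8 and 164 to 238 CPM at ZT20. These times were picked as those of its highest and lowest mean, so their lack of overlap is no separate test. Its means were highest at ZT8 with 308 ± 22.9 CPM (SD, n = 4) and lowest at ZT20 with 206 ± 30.5 CPM (SD, n = 4), a ratio of 1.49, and the adjusted p over all times was 0.0016 (edgeR). Amn was 223 to 375 CPM at ZT4 and 136 to 211 CPM at ZT20, times picked in the same way. Its means were 286 ± 65.6 CPM (SD, n = 4) and 191 ± 36.7 CPM (SD, n = 4), a ratio of 1.49, with an adjusted p of 0.0060 (edgeR).

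No variation over time was called for the receptors. Lrp2 in young mice had means between 2525 CPM at ZT16 and 3356 CPM at ZT0 (adjusted p = 0.307, edgeR), Cubn between 536 CPM at ZT16 and 704 CPM at ZT8 (adjusted p = 0.129), Dab2 between 453 CPM at ZT12 and 552 CPM at ZT8 (adjusted p = 0.121) and Clcn5 between 38.4 CPM at ZT16 and 60.6 CPM at ZT0 (adjusted p = 0.402). Some mice decided these calls, since Lrp2 passed without ZT12RU (adjusted p = 0.037, edgeR) and Dab2 without ZT16LU (0.039) or without ZT20LU (0.025). The ZT20 mouse ZT20LU had the highest length index of all (0.57). With the index as a covariate, 4 of the 6 genes were called in young mice, which added Cubn (adjusted p = 0.012) and Dab2 (0.029) to Amn (0.018) and Fcgrt (0.0086), and 5 when ZT20LU was also left out. The share of all genes called in these fits is not given here, and the 39.8% belongs to the fit without the index.

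In nephritic mice none of the 6 genes was called, against 21.6% of 16872 genes. At an unadjusted p under 0.05 there was 1, Fcgrt (p = 0.021, adjusted p = 0.077, edgeR). Fcgrt there was 274 to 366 CPM at ZT8 and 152 to 262 CPM at ZT0, again the times picked for its highest and lowest mean. Its means were 313 ± 42.1 CPM (SD, n = 4) and 205 ± 45.9 CPM (SD, n = 7). It passed with DESeq2 (adjusted p = 0.023), in Set 2 alone (0.022) and without any one of the nephritic mice CRS6LL, RX10RL or RX90 (0.049, 0.049 and 0.031, edgeR). Without RX10RU, the mouse with unusual Arntl, the adjusted p was 0.155. The difference in time course between groups itself was called for none of the 6 genes, against 6.27% of 17521 genes, with unadjusted p from 0.114 for Fcgrt to 0.785 for Clcn5, and DESeq2 called none either. Of the 18 proximal tubule markers, 13 varied over time in young, none in nephritic mice, and none differed in time course between the groups.

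**Figure D5:**
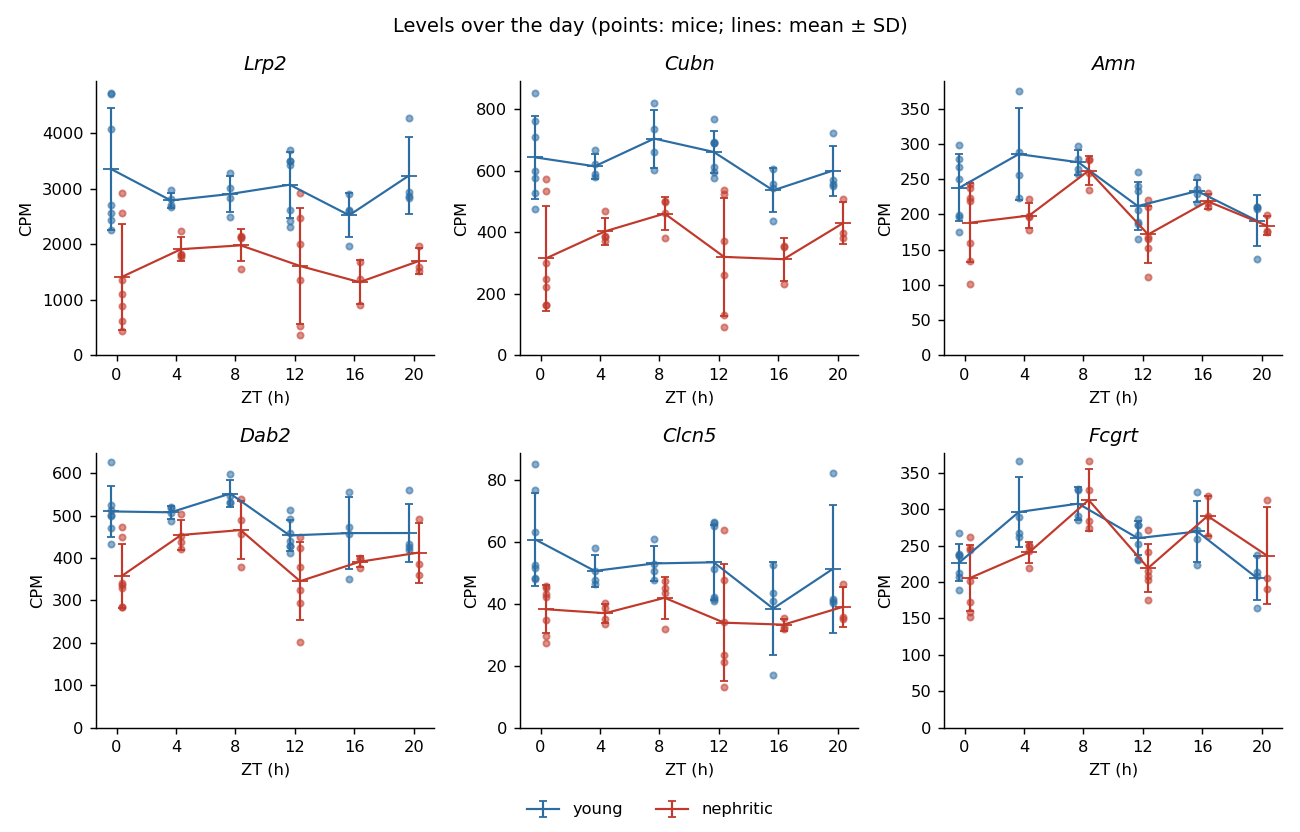
CPM of each gene (vertical axes from 0) against Zeitgeber time in hours, young in blue and nephritic in red, with points for mice and mean ± SD. In young mice Fcgrt has its highest mean at ZT8 (308 CPM) and Amn at ZT4 (286 CPM), and both are lowest at ZT20.

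The last comparison asked whether levels differ after remission induction, at ZT0 and ZT12 only, with 14 young, 13 nephritic and 8 remission mice. Lrp2 and Fcgrt were higher in remission than in nephritic mice, which was 2 of the 6 genes against 19.1% of 16841 genes, and none was lower, against 23.4%. Against young mice Dab2 was lower, 1 of 6 against 20.1%, and Fcgrt higher, 1 of 6 against 20.9%. Run and remission cannot be told apart except through the 4 repeat libraries. No rise was called when a run term was fitted from the repeats. That fit held each repeat beside its original as a further library, with no term for the mouse. The pairing was thus not used, and repeats counted as further mice. The run-term estimates below include the library labelled as the repeat of RX11RU unless stated. Its log2 difference from the original of that label was -0.67 for Lrp2, against -0.08 to 0.06 in the other repeats.

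Lrp2 was 1622 to 3119 CPM in remission (median 2488), 371 to 2929 CPM in nephritic (median 1352) and 2257 to 4725 CPM in young mice (median 3077) at these times. The log2 change from nephritic to remission mice was 0.71 (SE 0.29, adjusted p = 0.049, edgeR). It sat at the threshold, since leaving out any one of 26 of the 35 mice (12 young, 8 nephritic, 6 remission) took the adjusted p to between 0.052 and 0.089. With nephritic and young mice of Set 2 alone the change was 0.33 (adjusted p = 0.302), and with the run term 0.85 (adjusted p = 0.146). Against young mice Lrp2 was not called (log2 -0.38, SE 0.30, adjusted p = 0.320, 95% interval -0.97 to 0.20). Cubn was 355 to 612 CPM in remission mice, with 5 of 8 below the lowest young mouse of any time, and its change from nephritic mice was 0.56 (SE 0.24, adjusted p = 0.055, edgeR). It passed when any one of RX11LL, RX12LL, RX10RL, RX11RU or s14 was left out (adjusted p from 0.019 to 0.047, edgeR), with DESeq2 (0.042) and with limma voom (0.018), and not in Set 2 alone (log2 0.21, adjusted p = 0.414).

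Dab2 was the one gene called lower than in young mice after treatment. It was 262 to 419 CPM in remission, 201 to 474 CPM in nephritic and 412 to 626 CPM in young mice at these times. Against young mice the log2 change was -0.54 (SE 0.12, adjusted p = 0.00033, edgeR). The change was called in each alternative tried, among them the run term (-0.62, adjusted p = 0.0062, edgeR) and Set 2 alone (-0.54, adjusted p = 0.00087, edgeR). The highest adjusted p was 0.040 (edgeR), under a run term fitted without the library labelled as the repeat of RX11RU. Beside this fall, 8 of 18 proximal tubule markers were lower than in young mice and none higher, with a median log2 change of -0.67. All 10 macrophage markers and all 10 markers of T, B and plasma cells were higher than in young mice. The part of these cells in the level of Dab2 was not tested. From nephritic mice it differed by -0.09 (SE 0.12, 95% interval -0.32 to 0.14, adjusted p = 0.552, edgeR).

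Fcgrt was 229.5 to 392.4 CPM in remission, 152 to 272 CPM in nephritic and 189 to 287 CPM in young mice at these times. It was higher in remission than in nephritic mice by 0.44 (SE 0.10, adjusted p = 0.00062, edgeR) and than in young mice by 0.25 (SE 0.10, adjusted p = 0.037, edgeR). In the later run, however, Fcgrt was also higher in the 3 repeat libraries nearest to their own originals, by 0.23 to 0.31 on the log2 scale. The library labelled as the repeat of RX11RU was 0.18 above the original of that label. With the run term the change was 0.32 from nephritic (adjusted p = 0.088) and 0.10 from young mice (adjusted p = 0.692). The call against young mice was also lost without any one of 8 mice, with adjusted p from 0.052 to 0.119, the last without s10, with Set 2 alone (log2 0.17, adjusted p = 0.146) and with the length index as a covariate (log2 0.17, adjusted p = 0.0998). Those mice were ZT12RU, CR6RU, CR6RL, CR3LU, s10, s12, s14 and s8.

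Amn and Clcn5 were called in neither comparison by edgeR, with changes from nephritic to remission mice of 0.22 (SE 0.14, 95% interval -0.05 to 0.49) and 0.37 (SE 0.18, 95% interval 0.01 to 0.73, adjusted p = 0.100, edgeR). Clcn5 passed without RX11RU (0.49, adjusted p = 0.021, edgeR), and Amn was lower than in young mice in Set 2 alone (-0.29, adjusted p = 0.049, edgeR). With the length index as a covariate, 4 of the 6 genes, Lrp2, Cubn, Clcn5 and Fcgrt, were higher in remission than in nephritic mice. The share of all genes higher in that fit is not given here. Summed proximal tubule markers were 13543 to 23346 CPM in remission mice, with 3 of 18 markers higher than in nephritic mice, a share near the 19.1% of all genes, and none lower. Distal tubule markers were higher in 4 of 8 cases (median log2 change 0.65), macrophage markers lower in 5 of 10 and higher in 1, and fibroblast markers lower in 4 of 6. Injury markers were lower in 7 of 8 cases and Havcr1 changed by -1.69 (SE 0.54, adjusted p = 0.013, edgeR), to 78.2 to 119 CPM. Endothelial markers were higher in 8 of 8 cases, with a summed level of 755 to 1050 CPM against 271 to 697 CPM in nephritic mice, and their part in the level of Fcgrt was not tested. Lrpap1 and Folr1 were higher than in nephritic mice by 0.71 and 0.69, the largest rises among the 3 of 18 megalin partners and coat genes that rose, while Picalm and Eps15, of the clathrin coat, changed by -0.26 and -0.14. B2m changed by -0.49 (SE 0.16, adjusted p = 0.011, edgeR) and stayed above the young level by 0.54.

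Between ZT0 and ZT12 in remission mice none of the 6 genes was called, against 0% of 14451 genes by edgeR, 24 by DESeq2 and 0 by limma voom, with 1449 at an unadjusted p under 0.05. Fcgrt was 229.5 to 269.7 CPM at ZT0 and 256 to 392.4 CPM at ZT12, a log2 change of -0.36 (SE 0.12, unadjusted p = 0.011, adjusted p = 0.487, edgeR). Without the mouse s9, whose Arntl was at odds with its time, 202 genes were called and the change of Fcgrt was -0.46 (adjusted p = 0.058, edgeR). Lrp2 had 2375 to 3119 CPM at ZT0 and 1622 to 2567 CPM at ZT12, a log2 change of 0.38 (SE 0.17, unadjusted p = 0.047, adjusted p = 0.496, edgeR).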

How the data were processed

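Gene counts were deposited by the authors, 1 file per library with 24538 gene symbols, of which 15 were empty in every library and left out. Messenger RNA was isolated with oligo-dT beads and fragmented before reverse transcription. Reads of 150 bp were paired-end per the labels. The study's methods name both paired-end sequencing and single-ended read cycles. The study's methods name the Burrows-Wheeler aligner with build mm10 and uniquely aligned reads with at most 2 mismatches, while the submitters' processing notes list HISAT and mm10. Whether counting used strand was not given in the sources used here. Depth is given as total counts per library, and no interval for counting error was needed, since the spread between mice was used.

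Each fit kept the genes whose counts summed to 100 or more and tested them with the quasi-likelihood test of edgeR 4.0.16 (TMM scaling, R 4.3.3), with group, time and set as terms as each comparison needed, and called at a Benjamini-Hochberg adjusted p of at most 0.05 over all genes tested. DESeq2 1.42.0 and limma 3.58.1 (voom) were alternatives, with other scalings, filters, sets and single mice left out. CPM used TMM-scaled totals, and log2 CPM a prior count of 2. Correlations and differences from marker means were tested with 100000 permutations (scipy 1.17.1). The length index used 10067 of 10242 genes with a mean of at least 10 CPM, those with at most 2116 against those with at least 5080.5 exonic bases. It was chosen after seeing the data, as were the limma fit of all genes on Havcr1, the test of sets against groups and the fit of Set 1 alone. So were the run terms without the library labelled as the repeat of RX11RU, and the fits without RX10RU or ZT20LU. Scripts were tested on simulated data. Positions are from GENCODE M21 (GRCm38). All 6 genes are reported, and of each list the 2 genes with the lowest and the 2 with the highest called change are named, with B2m and Havcr1 always. The 6 genes and the lists were chosen with earlier results of these data known.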

Additional observations from a re-analysis of the deposited data

Results flagged for a closer look

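Dixon's test was run on 72 sets of values, each of 1 gene in the 4 to 7 mice of 1 group and time. In 8 of them a mouse lay far from the others, which chance gives in about 1 in 20 for a single set. Sets of different genes shared the same mice, and 5 of the 8 came from 1 mouse. The 8 sets are thus not independent, and their number cannot be set against chance. The young ZT20 mouse ZT20LU stood apart in 5 genes, with 4276 CPM of Lrp2 (next mouse 2952), 721 of Cubn (571), 560.3 of Dab2 (432), 82.0 of Clcn5 (41.4) and, on the low side, 136 CPM of Amn (208). It also had the highest length index, 0.57, whose part in these values was not tested. At nephritic ZT4 the mouse RX1OLL had 2243 CPM of Lrp2 (next 1822). At nephritic ZT8 the mouse RX10RU, whose Arntl was unusual, had 1555 CPM of Lrp2 (next 2107). At remission ZT0 the mouse s3 had 162 CPM of Amn (next 209.7).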

How the results depend on the processing

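With the length index as a covariate, 4 of the 6 genes varied over time in young mice and 5 when ZT20LU was also left out. For these fits the share of all genes called is not given here. Over time in nephritic mice 1 of the 6 was called with DESeq2 and 1 in Set 2 alone, and leaving out 1 mouse gave 0 to 1. Between remission and nephritic mice 1 was called with no filter, 1 in Set 2 alone, 1 without s9, 4 with the length index and 0 in each of the 3 fits with a run term, and leaving out 1 mouse gave 1 to 4, with 4 without RX11RU. Between remission and young mice 1 was called with no filter, 1 with the length index and 1 in each of the 3 fits with a run term, and leaving out 1 mouse gave 1 to 2. Leaving out 1 mouse gave 6321 to 7529 of all genes between remission and nephritic mice, and 6094 to 7178 between remission and young mice. For the fits with no filter, in Set 2 alone or with the length index, the share of all genes is not given here. The difference between sets was called for 0 genes of the 6 with the length index, where Amn stood at 0.57 and Fcgrt at 0.47. Over all genes, 5646 varied over time in nephritic mice with DESeq2, 1994 with no set term, 362 with a cosine of 24 h and 1336 with the length index. Time course differed between groups for 2186 genes with DESeq2, 455 with limma, 1715 in Set 2 alone, 121 with the cosine and 1681 with the length index, and for 638 to 1771 when 1 mouse was left out (1771 without RX10RL). With a run term, 3882, 3507 (without the library labelled as the repeat of RX11RU) and 4084 (also Set 2 alone) genes differed between remission and nephritic mice, and 2225, 1589 and 2043 between remission and young mice. Between ZT0 and ZT12 in remission mice, 24 genes were called by DESeq2 and 0 to 202 when 1 mouse was left out, 202 being without s9.

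Signs that turned belonged to values not called. Fcgrt from young to nephritic mice was 0.0087 in Set 2 with the length index. Lrp2 from young to remission mice was 0.068 in Set 2 with a run term and without the library labelled as the repeat of RX11RU. From ZT12 to ZT0 in remission mice, Cubn was -0.11 and Clcn5 -0.0045 with the length index, and leaving out 1 mouse gave -0.00045 to 0.24 for Cubn and -0.15 to 0.062 for Dab2. In Set 2 alone r turned to -0.039 for Clcn5 with Fcgrt in nephritic mice, and in young mice to 0.085 for Cubn with Amn, 0.22 for Cubn with Fcgrt, 0.029 for Amn with Clcn5 and 0.046 for Clcn5 with Fcgrt. The cause of these changes was not tested. No paired analysis was possible because the labels give mice of different groups no shared number.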
